A study of Mus musculus with 4 samples.

Results

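Chromatin accessibility was described at the loci of 9 lymphoid transcription factors, Ikzf1, Ikzf2, Ikzf3, Tcf3, Tcf4, Ebf1, Pax5, Foxp1 and Gata3, in bone marrow stem and progenitor cells with and without Cpt1a. The 9 genes were chosen by name for their roles in lymphoid development, out of 49554 genes in the annotation table. A locus was the gene body plus 10 kb on each side, and peaks that shared at least 1 bp between or within libraries were merged into regions. The 9 loci held 656 of the 337776 regions of all libraries, and 259 of the 656 had a peak in 2 or more libraries.

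Ikaros family zinc fingers (Ikzf1, Ikzf2, Ikzf3), E proteins (Tcf3, Tcf4) and Foxp1 act in early progenitors and across the lymphoid lineages, while Ebf1 and Pax5 specify and maintain B cells and Gata3 directs T cell development. In stem cells such lineage genes can lie in open chromatin before they are expressed at a high level, a state called lymphoid priming. ATAC-Seq shows accessibility only: a peak marks DNA that a transposase can reach, and it does not give the level of the gene's transcript.

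The libraries were 2 of Cpt1a fl/fl mice (control, labelled WT) and 2 of Cpt1a Δ/Δ mice (KO, labelled Cpt1a-KO). Cpt1a encodes the enzyme that passes long-chain fatty acids to the mitochondria for oxidation, and the deletion was made by crossing floxed mice with Vav1-Cre, which is active across the hematopoietic system. All mice were on a C57BL/6, CD45.2 background and were adults of both sexes, 8 to 12 weeks old unless the study says otherwise. The cells were c-Kit+ bone marrow cells sorted for stem cell surface markers and cryopreserved after the sort. They are called HSPCs in the study and long-term HSCs in the sample labels, which do not say whether the 2 libraries of a genotype came from separate animals. The p-values below therefore measure only the spread between these libraries.

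Each library had its own peak list, with 240940 to 277594 summits and no read counts, so the depth behind each list is unknown. The lists differed in what they covered, from 48.89 to 52.88 Mb per control and from 42.58 to 44.35 Mb per KO library, and in the share of summits that reached 5 in −log10 q, which was 42.5% in control 1, 46.8% in control 2, 40.5% in KO 1 and 35.1% in KO 2. The strength of a peak is given by its fold, the signal at the summit over the local background, and by the percentile of that fold among all peak intervals of the same library, where 100 is the strongest and 0 is written where there was no peak. The start of Cpt1a itself was open in every library, at 84.3 and 80.9 in the controls, against 86.1 and 89.2 in KO, which is no check of the labels, since the part of the gene that the deletion removes is not given in the sources used here. In bulk cells, fewer cells with an open region and a less open region in each cell cannot be told apart.

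The promoter windows are shown because the factors differed there in base composition and in how far peaks covered them. RefSeq sequence (GRCm38.p6, the assembly of mm10) of the 250 bases before an annotated start was at hand for 10 starts of 6 of the 9 genes, and not for Ikzf2, Ikzf3 and Tcf4. The 5 windows below run from the most to the least GC-rich, 5′ to 3′ on the strand of the gene, and capitals mark a match to 1 of 6 motifs.
Ikzf1, first start, chr11:11685675-11685924, plus strand: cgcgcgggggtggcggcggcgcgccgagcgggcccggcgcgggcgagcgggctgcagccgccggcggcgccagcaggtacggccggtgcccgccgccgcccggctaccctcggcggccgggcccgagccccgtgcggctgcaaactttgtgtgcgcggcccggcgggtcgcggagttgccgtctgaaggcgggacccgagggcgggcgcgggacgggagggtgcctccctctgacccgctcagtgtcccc
Foxp1, start of lowest coordinate, chr6:99028299-99028548, minus strand: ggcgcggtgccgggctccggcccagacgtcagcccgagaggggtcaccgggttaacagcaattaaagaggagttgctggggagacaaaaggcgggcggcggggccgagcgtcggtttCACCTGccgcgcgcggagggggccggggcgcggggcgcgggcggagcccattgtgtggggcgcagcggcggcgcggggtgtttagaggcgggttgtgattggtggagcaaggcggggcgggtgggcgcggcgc
Tcf3, chr10:80433636-80433885, minus strand: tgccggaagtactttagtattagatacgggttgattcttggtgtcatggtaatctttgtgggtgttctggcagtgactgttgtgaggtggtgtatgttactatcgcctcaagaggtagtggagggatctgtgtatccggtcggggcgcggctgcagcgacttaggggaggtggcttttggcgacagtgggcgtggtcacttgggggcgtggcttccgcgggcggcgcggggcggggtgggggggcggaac
Pax5, chr4:44710695-44710944, minus strand: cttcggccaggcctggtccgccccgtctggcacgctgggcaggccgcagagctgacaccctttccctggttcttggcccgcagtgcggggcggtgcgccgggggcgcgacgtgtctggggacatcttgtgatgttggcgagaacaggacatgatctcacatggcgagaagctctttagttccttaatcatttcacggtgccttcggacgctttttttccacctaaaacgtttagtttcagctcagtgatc
Ebf1, first start, chr11:44617850-44618099, plus strand: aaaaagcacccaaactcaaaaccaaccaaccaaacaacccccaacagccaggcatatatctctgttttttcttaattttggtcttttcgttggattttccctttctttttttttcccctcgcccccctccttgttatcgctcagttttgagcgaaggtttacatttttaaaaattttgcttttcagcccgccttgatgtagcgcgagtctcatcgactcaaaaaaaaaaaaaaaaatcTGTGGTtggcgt

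Peaks lay over these windows unevenly. The Ikzf1 window, with 82.0% GC and 44 CpG, was covered over its full 250 bases in each library. The Foxp1 window (74.0% GC, 34 CpG) was covered in full in both controls and KO 1 and over 145 bases in KO 2. That of Tcf3 (59.6% GC, 18 CpG) was covered in full in both controls and KO 2 and over 191 bases in KO 1. Ebf1 stood at the other end, with 40.0% GC, 9 CpG and 0 bases covered in any library. The Pax5 window (58.8% GC, 19 CpG) was close to that of Tcf3 in composition, and peaks lay over 250, 166, 209 and 181 of its bases in control 1, control 2, KO 1 and KO 2. In the windows not printed, coverage did not run in the order of GC. The Gata3 window (70.0% GC) was covered over 250, 133, 109 and 128 bases, in the same order of libraries. The second Ikzf1 start (47.6% GC) had 44, 237, 226 and 239 bases covered. The Foxp1 start of highest coordinate (60.8%) had 234, 239, 250 and 91. The second Ebf1 start (52.0%) had 0 in each library, and the middle Foxp1 start (45.2%) had 0, 0, 3 and 6. Among all 32851 windows of this length the median was 52.4% GC and 6.0 CpG.

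The windows were searched on both strands for the letters of 6 motifs. The first E-box form that E proteins bind is CAGCTG (in 13.0% of all windows), and the second is CAGGTG (17.2%). The core of RUNX sites was taken as TGTGGT (14.0%), that of Ikaros sites as TGGGAA (21.6%) and that of PU.1 sites as GAGGAAG (10.6%). For the zinc finger factors of the Gata family the letters were AGATAA (9.99%). The Foxp1 window held 1 E-box of the second form, read on the opposite strand, 133 bases before the start. At the first Ebf1 start a RUNX core began 12 bases before the start, and the window of the second Ebf1 start held 1 Ikaros core. The windows of Ikzf1, Tcf3, Pax5 and Gata3 held none of the 6. These matches describe the letters in the windows and were not tested for binding.

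The loci were compared by a fixed description. A locus was called open when a region held by all 4 libraries lay within 500 bp of an annotated start and the locus held at least the median number of such regions per 100 kb over all genes (4.41), closed when no region of 2 or more libraries lay near a start and the number was below that median, and intermediate otherwise. By this rule 7 of the 9 loci were open, 2 (Tcf4 and Ebf1) were intermediate and 0 were closed. The median over protein-coding genes alone was higher, at 6.03 per 100 kb. Ikzf2 (4.54), Ikzf3 (4.93) and Pax5 (5.34) lay below it, so their call as open rests on the median of all genes. Of 26794 genes with an annotated start, 40.3% were open and 29.8% closed, and of the 17274 protein-coding ones 49.8% were open and 22.5% closed. For Ikzf2, Ikzf3 and Tcf4, whose starts the table does not give, both ends of the gene were used.

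**Figure D1:**
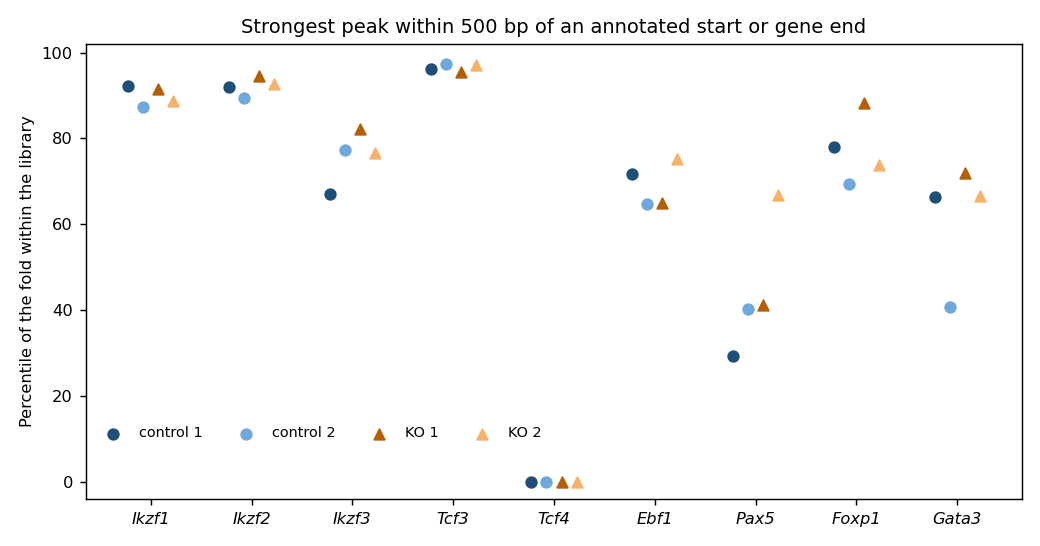
Percentile of the strongest peak within 500 bp of an annotated start (for Ikzf2, Ikzf3 and Tcf4, of a gene end) among the peak intervals of the same library, for 2 control libraries (circles) and 2 KO libraries (triangles). Tcf3, Ikzf1 and Ikzf2 lie above 87 in each library, Pax5 runs from 29.3 to 66.9, and the 0 of Tcf4 means that no peak lay in the window.

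Ikzf1 encodes Ikaros, the zinc finger factor needed for lymphoid progenitors to form. Its locus (chr11:11684962-11772930) held 55 regions, of which 15 were shared by all 4 libraries, 13.9 per 100 kb, above 86.8% of all genes. The region over its first start (chr11:11685298-11686437) stood at the 92.2 percentile in control 1 and 87.3 in control 2, and at 91.5 in KO 1 and 88.7 in KO 2. The genotypes overlapped there, and the log2 fold in KO minus control was -0.04 (SE 0.19). The table also places a start of the gene Gm11999 in this region. A region inside the gene (chr11:11762881-11763741), centred 77386 bp from the first start, ranked as high, at 89.7, 87.9, 92.4 and 88.3. The second Ikzf1 start was much weaker and less even. Its region (chr11:11689938-11690521) stood at 4.29 and 36.9 in the controls and at 40.9 and 61.6 in the KO libraries. Both KO values lay above both controls, though the nearest normalized log2 folds were 1.55 in control 2 and 1.61 in KO 1. The group means differed by 0.46 on the log2 scale (SE 0.27). In limma, a linear model with a moderated variance fitted over all regions, the adjusted p of that difference was 0.722.

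Ikzf2, which encodes Helios, had its strongest peaks at 1 end of the gene. The region at the end of higher coordinate (chr1:69687011-69688009) stood at 92.0 and 89.5 in the controls and at 94.5 and 92.7 in the KO libraries. Both KO values were above both controls by a small margin, with a log2 difference of 0.19 (SE 0.17, limma adjusted p = 0.838). Farther inside the gene the order was the opposite at 3 regions (chosen after their values were seen). At chr1:69606917-69607397 the normalized log2 folds were 2.79 and 2.5 in the controls, against 2.21 and 1.3 in the KO libraries. At chr1:69637927-69638780 they were 2.5 and 2.77 against 2.1 and 1.94, and at chr1:69654939-69655343 they were 3.07 and 2.75 against 2.34 and 2.49. The 3 differences, -0.89 (SE 0.32), -0.61 (SE 0.29) and -0.49 (SE 0.26), had limma adjusted p-values of 0.555, 0.648 and 0.690, so none passed the threshold of 0.05. Of the 8 Ikzf2 regions shared by all libraries, 3 were higher and 3 lower in both KO libraries than in both controls (37.5% each, where the background over all regions was 19.1% higher and 18.6% lower). The locus held 33 regions in all, with 4.54 shared regions per 100 kb.

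Ikzf3 encodes Aiolos, the family member of later B cell stages, and its region near a gene end ranked below the strongest start or end regions of Ikzf1 and Ikzf2 in each library. The region at its end of higher coordinate (chr11:98545564-98546151) stood at 67.1 and 77.2 in the controls and at 82.1 and 76.5 in the KO libraries, and the genotypes overlapped. The 2 strongest regions of the window lay outside the gene. One, at chr11:98550751-98551798, at 97.6, 94.5, 96.5 and 95.4, lies at a start of Zpbp2, and the other, at chr11:98457272-98458656, at 93.1, 90.1, 90.2 and 95.0, lies beyond the end of lower coordinate. Without the flanks, 2 of the 5 regions shared by all libraries remained, and the other 3 lay in the flanks.

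The E proteins Tcf3 (E2A) and Tcf4 (E2-2) bind E-boxes and work with Ebf1 and Ikaros in early B cell progenitors, and Tcf4 is also needed for plasmacytoid dendritic cells. Tcf3 had the strongest start of the 9 genes. The region over it (chr10:80433262-80434491) stood at 96.1 and 97.3 in the controls and at 95.5 and 97.0 in the KO libraries, where the −log10 q was 214 and 285 against 171 and 133. The percentiles overlapped between genotypes, and the log2 fold differed by -0.10 (SE 0.14, limma adjusted p = 0.908). The other 2 regions that all libraries shared at this short locus lay at the starts of its neighbours Mbd3 and Uqcr11, so 1 region held by all 4 libraries, that at the start, lay in Tcf3 itself.

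Tcf4 (chr18:69343429-69687967) had no peak within 500 bp of either end of the gene in any library, and it was intermediate for that reason alone, since it held 20 regions shared by all libraries (5.49 per 100 kb). The nearest, at chr18:69344007-69344606, began 578 bp inside the end of lower coordinate. It was strong, at 92.6 and 92.1 in the controls, and stronger in rank in both KO libraries, at 96.3 and 96.7. Its normalized log2 folds were 3.55 and 3.57 against 3.92 and 4.01, a difference of 0.40 (SE 0.15). The weak region beside it (chr18:69345764-69345905) went the same way, from 0.94 and 1.10 to 1.45 and 1.66, a difference of 0.54 (SE 0.22). These 2 regions, picked after their values were seen, had unadjusted p-values of 0.0137 and 0.0233 and adjusted p-values of 0.563 and 0.609 in limma. The strongest region of the locus lay deep in the gene (chr18:69592415-69593816), at 94.6 and 94.6 in the controls, against 96.5 and 95.7 in KO.

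Ebf1, the factor that commits progenitors to the B lineage, had the sparsest locus of the 9 (chr11:44618100-45008096). It held 72 regions, but the 11 shared by all libraries came to 2.68 per 100 kb, below the median of all genes. Its start region (chr11:44618225-44618611) lay just downstream of the first start, at 71.8 and 64.7 in the controls, against 64.9 and 75.1 in the KO libraries, with overlapping genotypes and a log2 difference of 0.04 (SE 0.30). Stronger regions lay upstream of the start. One centred 985 bp before it (chr11:44616885-44617345) stood at 86.8, 80.2, 84.2 and 80.4, and one centred 6876 bp before it (chr11:44610946-44611501) at 90.7, 86.5, 93.5 and 88.5. The printed promoter window lay in the gap between the region 985 bp upstream and the start region. At the far end of the gene a narrow region (chr11:45008066-45008414) ranked as high, at 90.4 and 88.8 in the controls, against 91.7 and 87.9 in KO. In all of these the control and KO values overlapped.

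Pax5, which maintains B cell identity, had the lowest start percentile of the factors with a start region in 3 of the 4 libraries (all but KO 2, where Gata3 was lower). The region over its start (chr4:44710664-44710984) stood at 29.3 and 40.3 in the controls, against 41.1 and 66.9 in the KO libraries. Both KO values were above the controls as ranks, the normalized log2 folds overlapped, and the log2 difference was 0.36 (SE 0.28, limma adjusted p = 0.810). The −log10 q of these peaks was 1.47, 2.98, 2.15 and 4.28, and where only summits reaching 5 in −log10 q were kept the locus was called closed. Inside the gene, 6450 bp from the start, lay a region (chr4:44703598-44704890) that ranked far higher in each library, at 95.8 and 94.8 in the controls, against 94.8 and 94.4 in the KO libraries. Its −log10 q was 90.2 and 92.7 against 81.1 and 49.7. The normalized folds of both KO libraries were below both controls there, with a KO mean 0.12 lower on the log2 scale (SE 0.14, limma adjusted p = 0.885). Across the locus 11 of 64 regions were shared by all libraries, 5.34 per 100 kb.

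Foxp1, a forkhead factor that takes part in early B cell gene regulation, is the longest of the 9 genes and gave 289 of the 656 regions and 46 of the 126 shared by all libraries. Per 100 kb that was 7.45, above 65.8% of all genes. Of its 3 annotated starts, that of lowest coordinate had the strongest region (chr6:99027833-99029213), at 78.1 and 69.4 in the controls, against 88.3 and 73.8 in the KO libraries. The start of highest coordinate had 2 regions shared by all libraries. The stronger one (chr6:99520989-99521728) stood at 52.1, 61.8, 42.3 and 71.5. The middle start (chr6:99266168-99266521) had weak peaks in 3 libraries, at 1.3 in control 1 and at 41.3 and 50.9 in the KO libraries, and none in control 2. The strongest region was again inside the gene, away from any start, at chr6:99388513-99389613, with 95.7 and 97.1 in the controls, against 95.0 and 95.9 in KO.

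Gata3, the T lineage factor, had a short and densely open locus, with 13.8 shared regions per 100 kb, above 86.5% of all genes. The region over its start (chr2:9878374-9878991) stood at 66.4 and 40.7 in the controls and at 72.0 and 66.5 in the KO libraries. Its normalized log2 folds were higher in both KO libraries (2.26 and 2.14) than in both controls (2.09 and 1.64). The group means differed by 0.33 on the log2 scale (SE 0.29, limma adjusted p = 0.839). A second region just before the start (chr2:9879156-9879892), centred 924 bp upstream, was far stronger and even across libraries, at 92.8, 94.1, 93.0 and 94.8, with a log2 difference of -0.01 (SE 0.16).

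**Figure D2:**
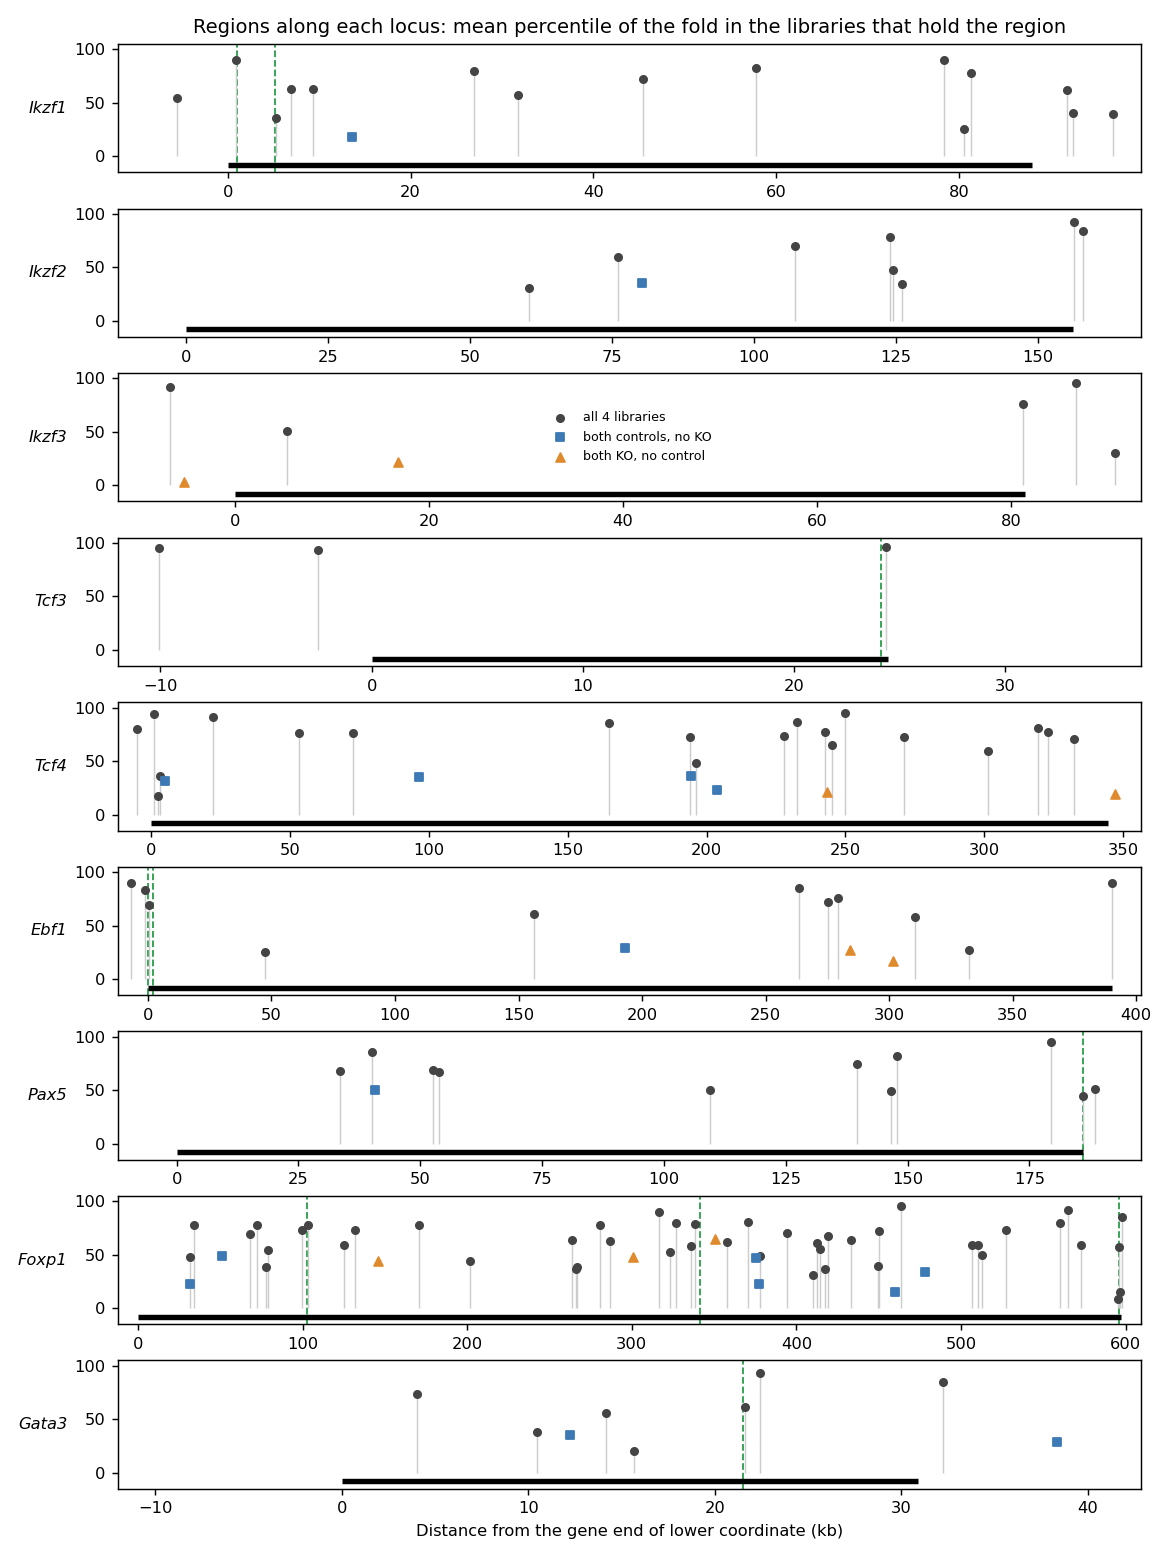
Position of regions along each locus (distance in kb from the gene end of lower coordinate, the black bar being the gene and green dashed lines the annotated starts) against the mean percentile of their fold in the libraries that hold them. Grey points are regions held by all 4 libraries, blue squares by both controls and no KO library (16 regions), and orange triangles by both KO libraries and no control (9 regions), and the strongest regions of Pax5, Foxp1 and Tcf4 lie inside the genes, away from the starts.

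Set side by side, the strongest region of a locus (by its lowest percentile over the libraries) covered an annotated start only at Tcf3. Among Ikzf2, Ikzf3 and Tcf4, where gene ends stood in for starts, it covered a gene end only at Ikzf2. Ikzf1 was a near tie, with a lowest percentile of 87.9 inside the gene and 87.3 over the first start. The −log10 q of that start region was the higher of the 2 in each library. Of the 126 regions shared by all libraries, 10 (7.94%) were at or above the 90th percentile in each library, against 15.8% of all shared regions. Of these 10 regions, 1 was at a start of the 9 genes (Tcf3) and 3 at starts of neighbouring genes. Most shared regions lay in gene bodies (111, with 15 in the flanks), but gene bodies also make up most of the length of the windows (597.4 of 617.4 kb at Foxp1). The median width of the 126 regions, 510 bp, was near the 526 bp of all shared regions.

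The share of a locus covered by peaks gave an order of the factors. Tcf3 (mean 8.95% of the window, lowest library 8.07, highest 9.79), Gata3 (7.87%, 6.08 to 9.7) and Ikzf1 (7.3%, 6.37 to 8.13) were the most covered, and these 3 ranges overlapped. Foxp1 followed at 4.92% (4.2 to 5.9), below and apart from Ikzf1. The next group was Ikzf3 at 3.72% (3.54 to 4.17), Pax5 at 3.22% (2.73 to 4.18) and Tcf4 at 3.22% (2.89 to 3.81), whose neighbours did not differ beyond the spread of the libraries. Ikzf2 at 2.38% (1.91 to 2.81) and Ebf1 at 1.44% (1.41 to 1.5) came last. The range of Ikzf2 was apart from that of Tcf4 but overlapped that of Pax5, and Ebf1 was apart from Ikzf2. The windows differed in length, from 44.44 kb at Tcf3 to 617.4 kb at Foxp1. That of Tcf3 took in the regions at the starts of its neighbours Mbd3 and Uqcr11, so its coverage is not that of Tcf3 alone. The part of gene length and of neighbouring genes in this order was not tested.

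The comparison of the genotypes was asked first of the presence of peaks. Of the 259 regions with peaks in 2 or more libraries, 126 (48.6%) were held by all 4 libraries, against 58.4% of all regions. Regions held by both controls and neither KO library numbered 16 (6.18%), where the background over all regions was 6.05%. Those held by both KO libraries and neither control numbered 9 (3.47%), with a background of 3.47%. Both shares thus lay at the level of the genome, and pairs of libraries that mixed the genotypes held 20 (control 1 and KO 1), 19 (control 1 and KO 2), 10 (control 2 and KO 1) and 9 (control 2 and KO 2) regions of their own. A further 397 regions (60.5%, and 59.3% of all regions) were seen in 1 library alone, 98 in control 1, 76 in control 2, 120 in KO 1 and 103 in KO 2.

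**Figure D3:**
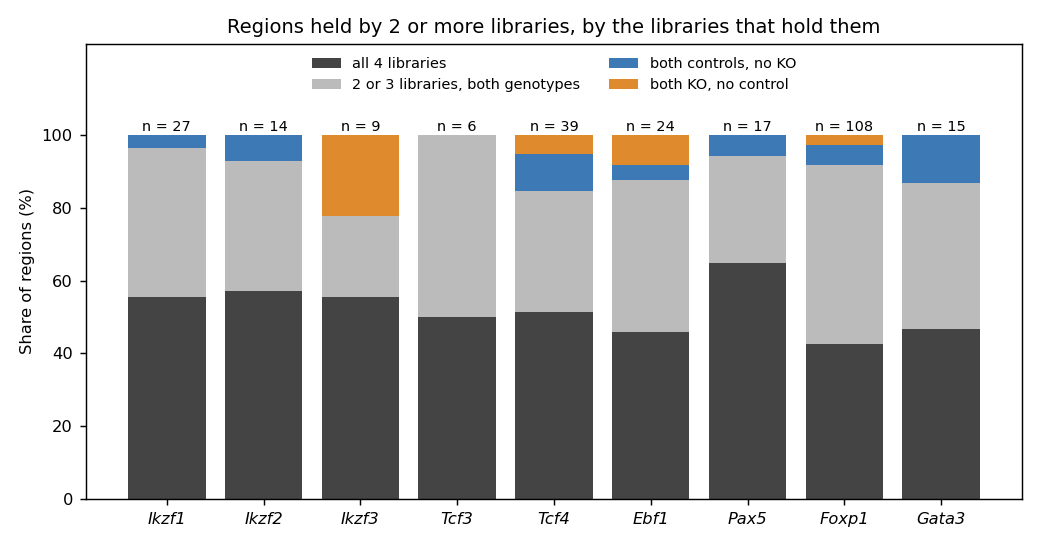
Share (%) of the regions with peaks in 2 or more libraries at each locus that were held by all 4 libraries (dark grey), by 2 or 3 libraries of both genotypes (light grey), by both controls and no KO library (blue) and by both KO libraries and no control (orange), with the number of regions (n) above each bar. Ikzf1, Ikzf2, Pax5 and Gata3 had regions of the blue kind and none of the orange, Ikzf3 had 2 orange regions and no blue one, and Tcf3 had neither.

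The 25 regions held by 1 genotype were weak. Their peaks ran from the 2.02 to the 72.0 percentile with a median of 30.9, they were 85 to 444 bp wide, none lay at an annotated start, and 1 reached 5 in −log10 q in any library. That one lay inside Foxp1 (chr6:99275725-99275882) and was held by KO 1 at 72.0 and KO 2 at 57.9, where the −log10 q was 5.88 and 2.40. Of those held by the controls, the one with the highest mean percentile lay inside Pax5 (chr4:44565294-44565448), at 59.3 and 40.4, with a −log10 q of 3.72 and 2.60. By locus, regions of the controls numbered 6 at Foxp1, 4 at Tcf4, 2 at Gata3 and 1 each at Ikzf1, Ikzf2, Ebf1 and Pax5. Those of the KO libraries numbered 3 at Foxp1 and 2 each at Ikzf3, Tcf4 and Ebf1. Several of them share values exactly, such as the Ikzf2 region chr1:69611446-69611567 and the Tcf4 region chr18:69439561-69439757, both with folds of 2.92 in control 1 and 2.97 in control 2.

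With stricter lists the regions held by 1 genotype were all held by the controls, a direction that the background shares in the first of the 2 settings. Where only summits reaching 5 in −log10 q were kept, the controls alone held 5 of 87 regions, the KO libraries alone 0 and all 4 libraries 52. The background shares over all regions in this setting were 7.02%, 0.807% and 67.6%. With the 100000 summits of lowest p in each library, the controls alone held 4 of 79 regions, the KO libraries alone 0 and all 4 libraries 52. Here the background shares over all regions were 2.75%, 3.11% and 72.1%. The 5 of the first setting lay in Ikzf2, Pax5 and Foxp1 (3 regions), and the 4 of the second in Ikzf2 (2 regions) and Foxp1 (2 regions). In the full lists each of these regions had a peak in at least 1 KO library, and all but 1 of them, in Foxp1, had a peak in all 4. The q scores of a list move with its depth, whose part in this was not tested.

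Covered length was lower in the KO libraries, as it was in the lists as a whole. Peaks covered 89628 and 82244 bp of the 9 loci in the controls and 71440 and 70631 bp in the KO libraries (mean 85940 ± 5221 and 71040 ± 572, SD, n = 2 each), a ratio of 0.827 beside 0.854 for the whole lists. Relative to each list, that was 1690, 1680, 1680 and 1590 bp per Mb covered, where control 2 and KO 1 were equal to 3 digits and KO 2 was lowest. The two-sided exact permutation test gave p = 0.333, the smallest that 2 against 2 libraries allow, so it could not have passed 0.05. By locus the ratio ran from 0.754 at Pax5 and 0.758 at Gata3 to 0.982 at Ebf1 and 1.09 at Ikzf3. In these raw lengths Ikzf3 was the only locus whose KO libraries were both above the controls, with 4227 and 3652 bp against 3591 and 3606. At Ikzf1, Ikzf2 and Ebf1 the raw lengths of the genotypes overlapped. Per Mb covered in each list, both KO libraries were above the controls at Ikzf3 and also at Ebf1 (138 and 132 bp, against 117 and 118). Foxp1 stayed lower in KO (638 and 585 bp per Mb, against 689 and 652), while Tcf3, Gata3, Pax5 and Tcf4 overlapped on this scale. How many of all genes lie apart between the genotypes in either measure was not counted.

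Signal strength was then compared at the 126 regions shared by all libraries. The median percentile of these regions was 72.9 and 69.0 in the controls, against 74.1 and 68.6 in the KO libraries, which overlapped (two-sided exact permutation test, p = 1.0). For all shared regions the medians were 77.4, 74.9, 78.7 and 76.6, so the regions of the 9 loci ranked lower than the shared regions of the genome in every library. In limma on the quantile-normalized log2 fold over all 80271 shared regions, with Benjamini-Hochberg adjustment over them all, 0 of the 126 regions were higher and 0 lower in KO at an adjusted p of at most 0.05 (0.0% and 0.0% of all regions). The lowest adjusted p among them was 0.555. At an unadjusted p under 0.05, 3 were higher and 5 lower, beside 3.56% and 4.07% of all regions. The folds of both KO libraries lay above both controls at 16 of the 126 regions (12.7%, background 19.1%) and below both at 21 (16.7%, background 18.6%). The differences ran from -0.89 to 0.58, with a median of -0.00301 over the 126 regions and 0.00417 over all regions. This fit uses no read counts and leaves out regions missing in a library, so its 0 calls do not show equal accessibility. The study's own count test, which was not run here, reported peaks up and down in KO over the genome.

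**Figure D4:**
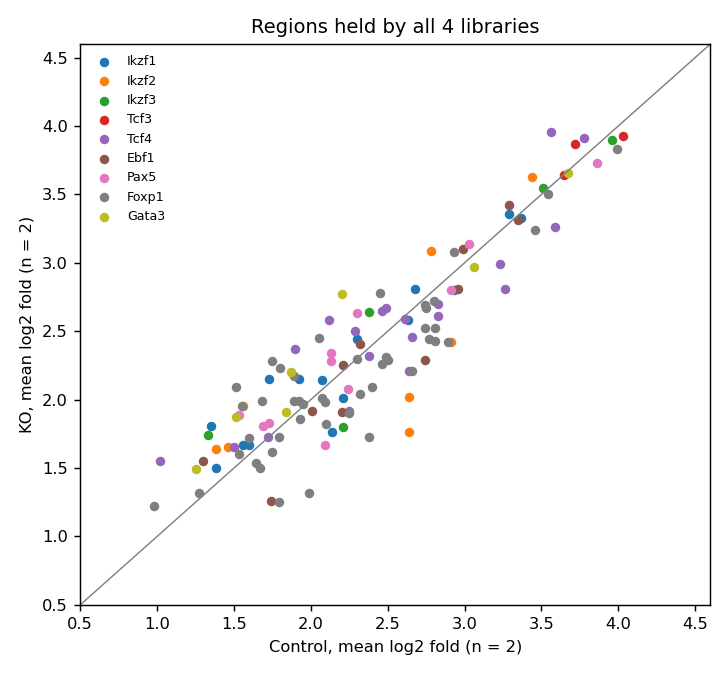
Mean quantile-normalized log2 fold of the 2 KO libraries against that of the 2 controls for the 126 regions of the 9 loci held by all 4 libraries, coloured by gene, with the line of equality. Points scatter on both sides of the line, from an Ikzf2 region 0.89 below it to a Foxp1 region 0.58 above it, and 0 of them passed an adjusted p of 0.05 in limma.

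Of the 8 regions with an unadjusted p under 0.05, 2 lay in Ikzf2 and 2 in Tcf4 (given above), and the other 4 lay in Foxp1. There, 3 regions were lower in both KO libraries, with differences of the means of -0.67 (SE 0.29), -0.66 (SE 0.29) and -0.54 (SE 0.25). The remaining 1 was higher, with a difference of 0.58 (SE 0.27). Their limma adjusted p-values were 0.623 to 0.650. At Foxp1 9 of the 46 shared regions (19.6%) were lower in both KO libraries and 3 (6.52%) higher, and at Tcf4 4 of 20 (20%) were lower and 5 (25%) higher, beside 18.6% lower and 19.1% higher among all regions.

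Genes that the 9 factors work with or act on were described by the same rule. Of 34 lymphoid partners and targets, 21 were open, 13 intermediate and 0 closed, with a median of 10.7 shared regions per 100 kb, beside 5.49 for the 9 factors. A median above that of the factors was not particular to this list. It was 9.27 for T cell markers, 8.67 for genes not expressed in blood and 5.62 for other genes of the same families. The cytokine receptor genes Flt3 and Il7r had strong start regions, at 97.6, 95.9, 98.4 and 95.9 for Flt3 and 88.0, 75.3, 85.6 and 73.1 for Il7r. Among the genes of antigen receptor assembly, Rag1 had a weak start region in each library (23.7 and 39.2 in the controls, 31.6 and 57.9 in KO), and Rag2, Dntt (the terminal transferase) and Vpreb1 (surrogate light chain) had no start region in 2 or more libraries. Of the 425 regions of this list, 36 were held by the controls alone and 9 by the KO libraries alone (background over all regions 6.05% and 3.47%, for this list and those that follow). Of 12 stem and myeloid factors such as Runx1, Spi1 and Cebpa, 10 were open and 2 intermediate, with 27 regions only in control and 10 only in KO of 269. Of 21 other genes of the same families, 9 were open and 12 intermediate, with 8 and 14 of 197. These counts were not tested.

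Markers of the sorted cells were read in the same way. A start region held by all libraries was found at 9 of 10 stem cell markers (all but Hoxa9), 1 of 6 T cell markers (Cd4), 3 of 6 B cell markers, 4 of 6 neutrophil markers, 1 of 4 erythroid markers and 1 of 3 natural killer markers, beside 52.4% of all genes with an annotated start and 65.9% of the protein-coding ones. It was also found at 3 of 6 genes not expressed in blood (Myod1, Neurod1 and Pdx1). Of the T cell markers, Cd3d and Cd8a were closed, as were 1 neutrophil marker, 1 natural killer marker and 1 gene not expressed in blood. The part of other cells in the values of the 9 loci was not tested.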

How the data were processed

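ATAC-Seq peak lists of 2 control and 2 KO libraries were used, called by the authors on each library separately. The submitters' processing notes name Bowtie2, MACS2 and mm10, with versions and settings not given in the sources used here. The deposited lists give for each summit a fold (a ratio of the signal to the local background) and −log10 p and −log10 q values, and no read counts, so depth and the precision it gives are unknown and the count test of the study's methods (DiffBind with edgeR) was not run. Summits given as a chromosome position (253 to 492 per list) were read as such.

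Intervals on the autosomes and X that overlapped by at least 1 bp were merged (Python 3.11.15, numpy 2.4.6, pandas 2.3.3) and assigned to each gene body plus 10 kb from the RefSeq gene table, of the same build. The highest fold in a region was ranked as a percentile within its library. Regions held by all 4 libraries were tested on the log2 fold, quantile-normalized, with limma 3.58.1 in R 4.3.3 (eBayes with trend, Benjamini-Hochberg over all of them), a step tested on simulated data. Permutation tests used scipy 1.17.1, and with 2 libraries against 2 the smallest two-sided p is 0.333. The files gave replicate numbers, and the deviations of same-numbered libraries were not correlated across regions (correlation 0.00466). This cannot tell whether those libraries were paired in the experiment, which the labels do not say.

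The members, gene lists and alternatives were chosen with earlier results of these data known. Regions named were those at a start, the strongest of each locus, and up to 3 per locus and direction among regions of 1 genotype. Those of lowest p were added after their values were seen. Alternatives were a −log10 q of at least 5, the 100000 strongest summits, a covered share of at least 0.5, no flank, ranking by −log10 p, other normalizations, a filter at the 50th mean percentile, the replicate block and leaving out each library. No genome sequence was used, so exons, introns and the sequences of peaks are not analysed here. The result of 1 gene of the marker lists is not reported here.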

Additional observations from a re-analysis of the deposited data

How the results depend on the processing

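The loci held 259 regions of 2 or more libraries, 126 of all 4, 16 of the controls alone, 9 of the KO libraries alone, and 7 open loci. With a −log10 q of at least 5 these became 87, 52, 5, 0 and 4, and with the 100000 strongest summits 79, 52, 4, 0 and 4. Pax5 was closed under both settings. With a covered share of at least 0.5, 64 regions were held by all 4 and 31 were only in control. Leaving out each library in turn gave 29 to 116 regions only in control and 14 to 135 only in KO, since a single library then stood for a genotype. Without KO 2 there were 29 and 135, without KO 1 39 and 112, without control 1 95 and 17, and without control 2 116 and 14. The counts of 0 higher and 0 lower regions in limma were the same under every alternative fit run. With the replicate block they were 0 and 0, with a lowest adjusted p of 0.309, and over all 80271 regions 18 were higher and 36 lower, where the main fit called 0 and 0. Whether the replicate numbers pair the libraries is not known, and their deviations were not correlated, so the block was not read further. The median percentile of the shared regions differed by 0.391 (KO minus control) and by 0.797 when ranked by −log10 p. Without normalization the median log2 difference was -0.08 over all regions and -0.09 at the 9 loci. Depth could not be set equal between the lists, as no reads were used here, so counts that rest on a score threshold are limited by it.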
